A study of Mus musculus with 6 samples.

Results

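Glycogen, the branched glucose polymer that the liver builds after a meal and breaks down between meals, is handled by a small set of enzymes and regulators. Transcripts of 9 of these genes were examined in mouse liver: Gys2, Gbe1, Pygl, Gyg, Ugp2, Phka2, Ppp1r3b, Ppp1r3c and Ppp1r3g. They were taken by gene symbol from a table of raw read counts, in which each of the 9 had its own row among 56674 rows. The libraries came from livers of male C57BL/6 mice, an inbred laboratory strain, that were reared to 71 weeks. The 3 control samples were from mice fed normal chow, and the 3 PP-MP samples from mice whose chow held polypropylene microplastic (PP-MP), particles of a common packaging plastic. The treatment field of every sample names PS-MP, so the groups follow the titles and the treatment characteristic. No allele, transgene or second agent is named for either group. The sources used here do not give the dose, the particle size, the feeding state or the hour of sampling. They do not say either that the replicates were separate mice, and the p-values then measure only how far these samples spread, which may be technical.

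As background, Ugp2 makes UDP-glucose, the activated sugar; glycogenin (Gyg) starts the chain on itself; liver glycogen synthase (Gys2) lengthens it; and the branching enzyme (Gbe1) adds branch points. Liver glycogen phosphorylase (Pygl) removes glucose units and is switched on by phosphorylase kinase, of which Phka2 encodes the liver form of the regulatory alpha subunit. Protein phosphatase 1 has the opposite action, switching synthase on and phosphorylase off, and the Ppp1r3 proteins (GL, encoded by Ppp1r3b; PTG, encoded by Ppp1r3c; and the product of Ppp1r3g) bring that phosphatase to the glycogen particle.

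Total counts ranged from 68357478 to 112566641 per library. The 18S rRNA gene Rn18s-rs5 held 2.92%, 11.2% and 1.15% of the counts in control 1, 2 and 3, against 0.655% to 0.750% in PP-MP. The summed level of 7 hepatocyte markers was 59600 to 71800 CPM (read counts relative to library size, scaled with TMM factors) in the controls, against 65900 to 78000 CPM in PP-MP, so the defining markers of the labelled tissue were present. The sum of 7 Kupffer cell and macrophage markers was 135 to 156 CPM in the controls, against 539, 306 and 151 CPM in PP-MP 1, 2 and 3. That of 6 neutrophil markers was 0.660 to 0.882 CPM in the controls, against 2.32 to 19.1 CPM in PP-MP, highest in PP-MP 1. That of 7 T, NK and B cell markers was 18.9 to 53.7 CPM in the controls, against 7.35 to 48.2 CPM in PP-MP. All 7 of these had a lower fitted value in PP-MP (median log2 fold change −0.66). The skeletal muscle markers Ckm, Acta1, Myh4 and Tnnt3 had 0 counts in all 6 libraries, while the fifth marker of that list, Mylpf, was at 0.441 to 0.713 CPM in the controls, against 0.582 to 0.733 CPM in PP-MP. The part of these other cells and of ribosomal RNA in the results below was not tested, and in bulk RNA fewer cells of a type and less RNA per cell cannot be told apart.

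Of the 9 glycogen genes, Gbe1, Pygl and Ppp1r3c were lower in all 3 PP-MP libraries than in any control, while Gys2 stood at nearly the same mean in both groups. The group means in PP-MP were 29.7% of control for Gbe1, 49.5% for Ppp1r3c, 64.9% for Pygl and 103% for Gys2. None of the 9 passed the threshold of edgeR's quasi-likelihood test (adjusted p under 0.05 over 18284 genes; lowest adjusted p of a member 0.23), a threshold passed by 0.0109% of all genes tested. At an unadjusted p under 0.05, 3 of the 9 were lower and 0 higher, against 5.81% of all genes lower and 8.05% higher. Without overlap between the groups, 3 of the 9 were lower and 0 higher, against 9.79% and 12.2% of all genes. DESeq2 called the same 3 genes as lower (adjusted p = 0.0040 for Gbe1, 0.028 for Pygl and 0.017 for Ppp1r3c), where it called 1.87% of all genes lower. That run used the genes that passed the edgeR filter. Run on every gene with a count, DESeq2 called 2 of the 3, Gbe1 (adjusted p = 0.0043) and Ppp1r3c (0.022). Pygl was not past the threshold there (adjusted p = 0.061). Over both directions, 699 of the 30797 genes with a count were called in that run. The fitted value was lower in PP-MP for 8 of the 9 (47.4% of all genes), and their median log2 fold change was −0.55, beside 0.03 over all genes tested.

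**Figure D1:**
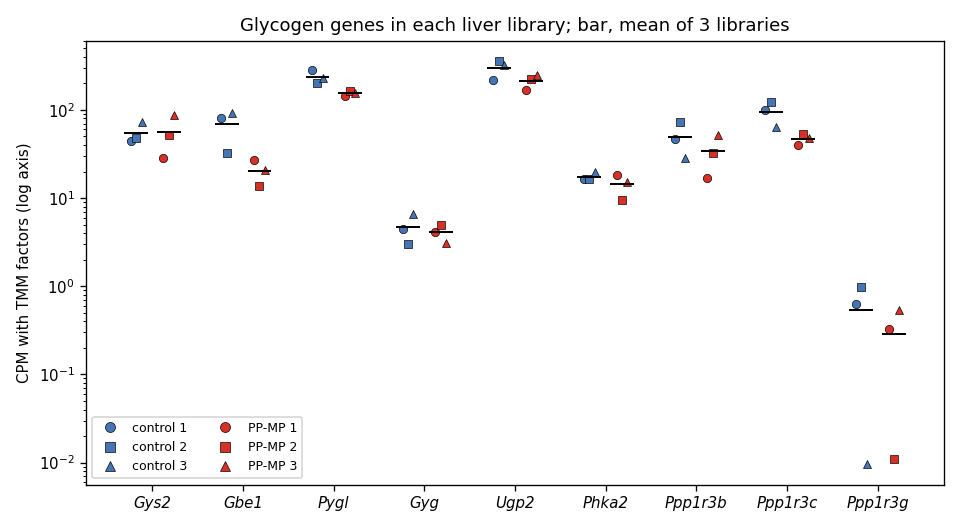
Level of each glycogen gene in each liver library, in CPM with TMM factors on a log axis; points are libraries and bars the mean of 3. All 3 PP-MP points lie below all 3 control points for Gbe1, Pygl and Ppp1r3c, and 2 libraries, control 3 and PP-MP 2, lie far below the rest for Ppp1r3g.

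For the 3 genes that were lower in every PP-MP library, the 250 bases before the RefSeq transcription start are shown (build GRCm38.p6, 5′ to 3′ on the strand of the gene), because these genes differed in the same direction. Capitals mark any match, on either strand, to 7 short motifs: the E-box CACGTG, the cAMP response element TGACGTCA and its core TGACG (which lies within the full element), the forkhead motif TGTTTAC, the GC box GGGCGG, the CCAAT box and the TATA box TATAAA. The Gbe1 window is chr16:70313699-70313948 on the plus strand, that of Pygl chr12:70227684-70227933 on the minus strand, and that of Ppp1r3c chr19:36736605-36736854 on the minus strand.
Gbe1: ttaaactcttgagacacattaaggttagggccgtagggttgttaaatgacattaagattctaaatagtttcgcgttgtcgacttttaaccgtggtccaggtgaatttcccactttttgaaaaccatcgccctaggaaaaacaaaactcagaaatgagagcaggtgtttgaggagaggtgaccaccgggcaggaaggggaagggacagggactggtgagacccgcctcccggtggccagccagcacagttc
Pygl: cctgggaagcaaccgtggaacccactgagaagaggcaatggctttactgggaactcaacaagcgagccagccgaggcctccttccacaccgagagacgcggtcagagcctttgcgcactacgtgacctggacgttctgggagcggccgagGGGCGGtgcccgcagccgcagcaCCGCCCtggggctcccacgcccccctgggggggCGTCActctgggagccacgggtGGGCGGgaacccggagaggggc
Ppp1r3c: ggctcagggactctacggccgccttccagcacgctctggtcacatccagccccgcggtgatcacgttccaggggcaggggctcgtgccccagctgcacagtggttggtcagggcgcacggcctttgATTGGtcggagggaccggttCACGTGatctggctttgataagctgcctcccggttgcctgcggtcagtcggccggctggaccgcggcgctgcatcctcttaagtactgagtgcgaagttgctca

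The 3 windows held no motif of these 7 in common. Ppp1r3c held the E-box, which begins 104 bases before the start and occurs in 6.02% of 32817 promoter windows of this length, and 1 CCAAT box on the opposite strand (33.8% of windows). Pygl held 3 GC boxes (at least 1 in 32.7% of windows) and 1 core TGACG (17.7%) on the opposite strand, 44 bases before the start. Gbe1 held none of the 7 in this window. The G and C content was 48.8% for Gbe1, 69.2% for Pygl and 64.4% for Ppp1r3c, against a median of 52.4% over all windows. Among the 7 glycogen genes with an entry in the promoter table, the GC box occurred in 5, the CCAAT box in 3, the core TGACG in 2, the E-box in 1 and the other 3 motifs in 0; the full element, the forkhead motif and the TATA box occur in 1.55%, 3.16% and 12.4% of all windows. A match is a run of letters and not evidence of binding.

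Among the genes that build glycogen, Ugp2 had the highest level. Its CPM values were 217, 360 and 324 in the controls, against 169, 225 and 245 in PP-MP 1, 2 and 3. PP-MP 2 and 3 lay above control 1, so the groups overlapped. The log2 fold change was −0.49 (SE 0.24, 95% interval −1.07 to 0.09; edgeR adjusted p = 0.42), and it ranged from −0.67 to −0.20 over the other settings.

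Glycogenin had few transcripts. Gyg stood at 4.46, 3.02 and 6.54 CPM in the controls, against 4.14, 5.01 and 3.07 CPM in PP-MP. The lowest and the highest of the 6 were both control libraries, control 2 and control 3. Its log2 fold change of −0.20 (SE 0.33, interval −0.99 to 0.59) missed the edgeR threshold (adjusted p = 0.81). It was 0.15 without control 3 and −0.42 without control 2, and ranged from −0.45 to 0.15 over the other settings.

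Gys2, the synthase, varied more within PP-MP than between the diets. It was at 43.8, 47.8 and 72.3 CPM in the controls, against 28.7, 52.3 and 87.4 CPM in PP-MP. PP-MP 1 was the lowest and PP-MP 3 the highest of all libraries, 3.05-fold apart, with the control range between them. The fitted log2 fold change was 0.04 (SE 0.41, edgeR adjusted p = 0.98). Its interval of −0.94 to 1.02 reaches to about 2-fold either way, so a difference of nearly that size was not excluded.

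The branching enzyme showed the largest shift of the 9 members. Gbe1 was at 81.1, 32.6 and 93.1 CPM in the controls, against 26.9, 13.8 and 20.7 CPM in PP-MP. Control 2 lay far below the other 2 control libraries and only just above PP-MP 1, yet the groups did not overlap. The log2 fold change was −1.75 (SE 0.43, interval −2.79 to −0.72; edgeR adjusted p = 0.23). It ranged from −2.34 to −1.44 over 16 other settings, with the lower end reached when control 2 and PP-MP 1 were both left out and the upper end without control 3.

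On the breakdown side, Pygl had the smallest spread among PP-MP libraries of the 9 members, 1.15-fold from lowest to highest. The phosphorylase was at 281, 204 and 228 CPM in the controls, against 142, 164 and 156 CPM in PP-MP. Control 1 was the highest, and the groups did not overlap. Its log2 fold change was −0.62 (SE 0.17, interval −1.02 to −0.23; edgeR adjusted p = 0.24), and it ranged from −0.71 to −0.40 over the other settings. Scaling by library totals instead of TMM raised the median of all genes from 0.03 to 0.26 on the log2 scale. The unadjusted p of Pygl from edgeR was then 0.075, and 2 members in place of 3 had a value under 0.05.

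Phka2, the regulatory subunit of the kinase that activates phosphorylase, was at 16.3, 16.3 and 19.9 CPM in the controls, against 18.0, 9.53 and 15.4 CPM in PP-MP. PP-MP 2 stood alone at the low end and the other 2 PP-MP libraries lay within or close to the control range. The log2 fold change was −0.29 (SE 0.25, interval −0.88 to 0.31; edgeR adjusted p = 0.63). It was −0.07 without PP-MP 2, −0.16 without control 3 and −0.49 without PP-MP 1, and ranged from −0.54 to −0.06 over the other settings.

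**Figure D2:**
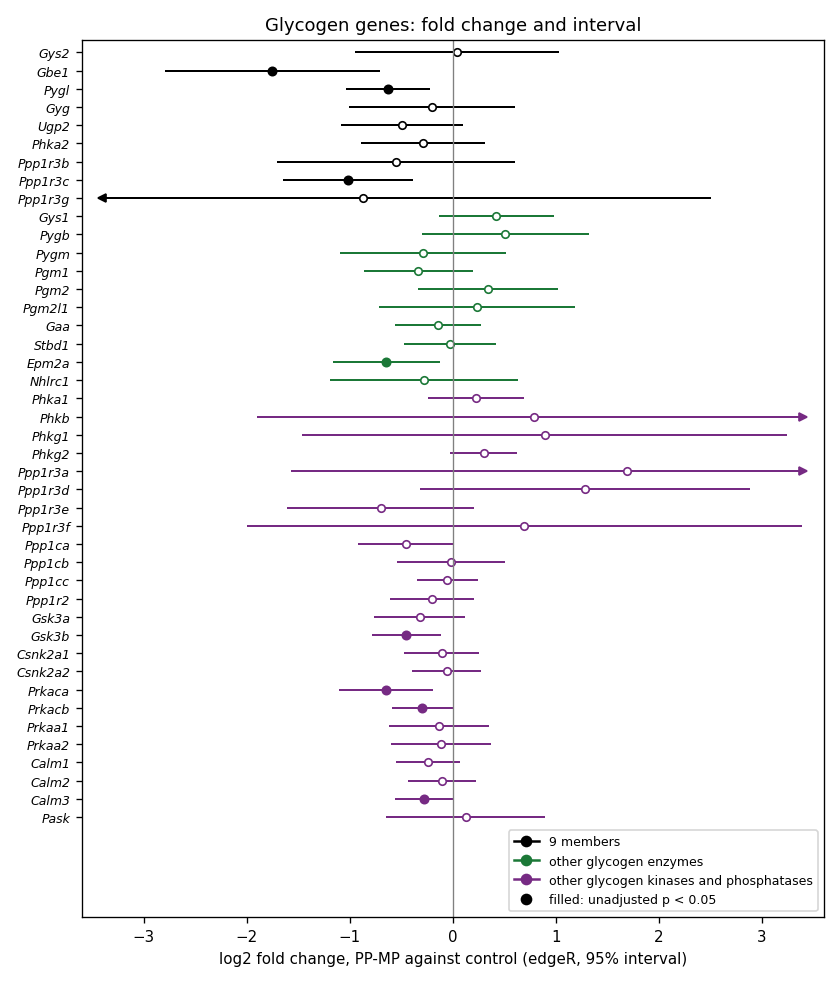
Log2 fold change of PP-MP against control with its 95% interval (edgeR) for the 9 members and 34 other tested glycogen genes; filled points have an unadjusted p under 0.05 and arrows mark intervals that run past the axis. Among the members the intervals of Gbe1, Pygl and Ppp1r3c exclude 0, and that of Ppp1r3g is the widest.

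The phosphatase subunits differed from one another in their pattern over the libraries. Ppp1r3c, which encodes PTG, was at 98.4, 124 and 63.3 CPM in the controls, against 39.9, 53.5 and 47.9 CPM in PP-MP. Control 2 was the highest library and control 3 the lowest of the controls, still above all 3 PP-MP libraries. The log2 fold change was −1.01 (SE 0.26, interval −1.64 to −0.39; edgeR adjusted p = 0.23). It ranged from −1.22 to −0.67 over the other settings, with the weakest value when control 2 and PP-MP 1 were left out together.

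Ppp1r3b, which encodes the liver subunit GL, was at 46.4, 73.6 and 28.4 CPM in the controls, against 17.0, 32.7 and 51.9 CPM in PP-MP. PP-MP 3 lay above control 1, and the groups overlapped widely. Its log2 fold change of −0.55 (SE 0.48, interval −1.69 to 0.60; edgeR adjusted p = 0.63) turned to 0.18 without control 2 and PP-MP 1. It was −0.14 without control 2, −0.22 without PP-MP 1 and −0.99 without PP-MP 3.

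Ppp1r3g, the third of these subunits, was scarce and uneven. In raw reads it had 46, 59 and 1 in the controls, against 33, 1 and 55 in PP-MP 1, 2 and 3. A single count was thus found in 1 library of each diet, and the other 4 libraries held 33 or more. The fitted log2 fold change of −0.87 has an interval from −4.23 to 2.49 (SE 1.41; edgeR adjusted p = 0.80) and says little about the diet. With 1 library left out it ranged from −1.64 (without PP-MP 3) to −0.09 (without control 2).

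Within the Ppp1r3 family, the make-up was compared as shares within each library after division by exonic length, so that each library is its own reference. The size of the shares depends on the lengths used, 6216 bases for Ppp1r3b and 2725 for Ppp1r3c. Ppp1r3c held 81.7%, 77.9% and 81.7% of the family's counts per kilobase in the controls, against 80.9%, 77.4% and 66.5% in PP-MP. Ppp1r3b held 16.9%, 20.3% and 16.1% in the controls, against 15.1%, 20.8% and 31.6% in PP-MP. PP-MP 3 stood apart, with the lowest share of Ppp1r3c and the highest of Ppp1r3b, and the other 2 PP-MP libraries lay close to the controls. The mean share of Ppp1r3c in PP-MP minus that in control was −5.52 percentage points. It was −1.31 points without PP-MP 3 and −8.50 points without PP-MP 1, and between −6.78 and −4.88 points without any other library. Ppp1r3e, which was 1.22% ± 0.691 in the controls, against 1.34% ± 0.667 in PP-MP (SD, n = 3 per group), led the other 5 subunits in both groups.

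**Figure D3:**
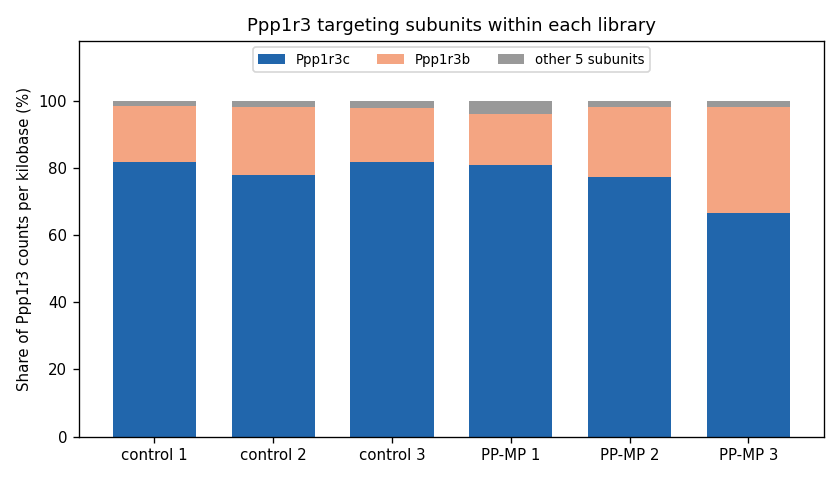
Share of each phosphatase targeting subunit in the summed Ppp1r3 counts per kilobase of exon, for each library. Ppp1r3c holds 66.5% to 81.7% in every library, with the lowest share in PP-MP 3.

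Levels of different genes were compared as CPM per kilobase of exon. The order depends on the exonic lengths used, such as 6895 bases for Pygl and 2725 for Ppp1r3c, and the SDs below do not cover this. In CPM without division by length, the control means were 238 for Pygl and 95.1 for Ppp1r3c. In control the order was Ugp2 (97.8 ± 24.3), Ppp1r3c (34.9 ± 11.1), Pygl (34.5 ± 5.70), Gys2 (20.6 ± 5.82), Gbe1 (12.9 ± 5.99), Ppp1r3b (7.96 ± 3.66), Phka2 (2.88 ± 0.345), Gyg (1.99 ± 0.755) and Ppp1r3g (0.201 ± 0.182; all mean ± SD, n = 3). Neighbours in this order differed by less than the sum of their SDs for Ppp1r3c and Pygl, Gys2 and Gbe1, Gbe1 and Ppp1r3b, and Phka2 and Gyg. The same holds for Ppp1r3c and Gys2, which are not neighbours. In PP-MP Ugp2 still led (69.5 ± 13.0), followed by Pygl (22.4 ± 1.57), Gys2 (21.1 ± 11.1), Ppp1r3c (17.3 ± 2.51), Ppp1r3b (5.45 ± 2.81), Gbe1 (3.82 ± 1.23), Phka2 (2.36 ± 0.716), Gyg (1.74 ± 0.413) and Ppp1r3g (0.108 ± 0.0974). Gys2 lay within the summed SDs of both Pygl and Ppp1r3c, but Pygl was above Ppp1r3c by more than theirs, with no overlap among the PP-MP libraries. Gbe1 lay within the summed SDs of Ppp1r3b and of Phka2, and Phka2 within those of Gyg.

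The liver forms of synthase and phosphorylase far exceeded the forms known from other tissues. Pygl was at 34.5 ± 5.70 CPM per kilobase in control, against 0.509 ± 0.133 for the brain form Pygb and 0.324 ± 0.0882 for the muscle form Pygm. Gys2 was at 20.6 ± 5.82 and the muscle form Gys1 at 0.372 ± 0.0144. In PP-MP Gys1 was at 0.498 ± 0.0843 (log2 fold change 0.42, SE 0.23, edgeR adjusted p = 0.46). It was above control in every PP-MP library, as were 12.2% of all genes. Pygb was at 0.724 ± 0.244 in PP-MP, with overlap between the groups. The sum of the Kupffer cell and macrophage markers was also highest in PP-MP 1, the library with the highest Pygb (0.981). What part those cells had in the Pygb value was not tested.

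**Figure D4:**
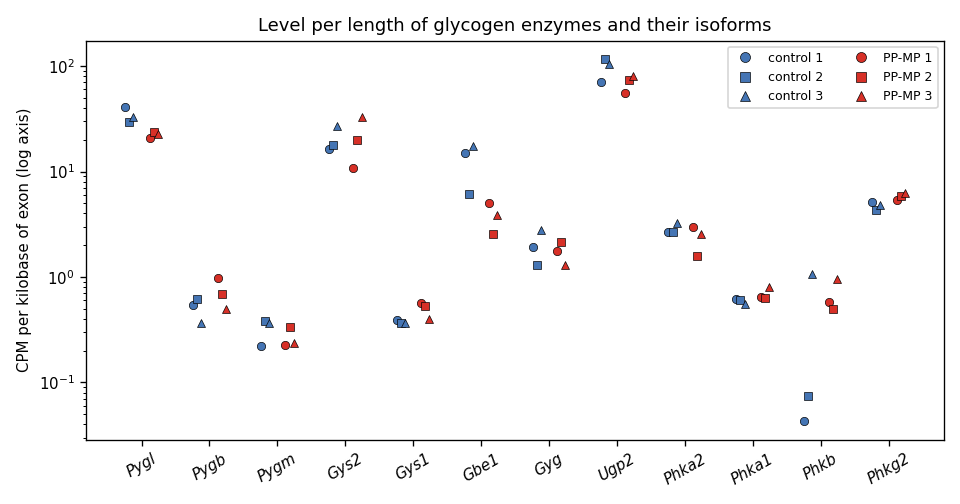
Level per kilobase of exon (CPM per kilobase, log axis) of glycogen enzymes, their isoforms and the subunits of phosphorylase kinase in each library. Pygl and Gys2 lie far above Pygb, Pygm and Gys1 in every library, and Phkb is low in control 1 and 2.

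Ratios within a library do not depend on how libraries are scaled. Per kilobase, Gys2 over Pygl was 0.405, 0.608 and 0.822 in the controls, against 0.522, 0.829 and 1.45 in PP-MP. Per kilobase, synthase exceeded phosphorylase only in PP-MP 3, and the groups overlapped. The level of this ratio, but not its difference between groups, depends on the exonic lengths used, 2657 bases for Gys2 and 6895 for Pygl. In CPM, without division by length, Pygl lay above Gys2 in PP-MP 3 too (156 against 87.4). The mean log2 ratio was 0.55 higher in PP-MP (exact permutation p = 0.4, two-sided, n = 3 per group, where the smallest p possible is 0.1), 0.16 higher without PP-MP 3, 0.28 without control 1 and 0.90 without PP-MP 1.

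A further ratio was chosen after the values were seen and is given without a test. Gbe1 over Pygl was 0.372, 0.206 and 0.526 in the controls, against 0.243, 0.108 and 0.171 in PP-MP, where PP-MP 1 lay above control 2.

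The fold changes of the other enzymes of glycogen metabolism centred nearer 0 than those of the members. Of 10 such genes, all tested, 0 passed the edgeR threshold (lowest adjusted p 0.30), and the median log2 fold change was −0.08. At an unadjusted p under 0.05, 1 was lower and 0 higher, against 5.81% of all genes lower and 8.05% higher. The 1 was Epm2a, encoding laforin, a phosphatase that acts on glycogen, at 7.04, 5.97 and 8.82 CPM in the controls, against 4.16, 5.40 and 4.42 with PP-MP (log2 fold change −0.64, SE 0.22). Pgm1, a phosphoglucomutase that links glucose 1-phosphate to glucose 6-phosphate, had a log2 fold change of −0.33 (interval −0.86 to 0.19). The members and this list were chosen with earlier results of these data known, so the contrast of their medians is only a description.

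Of 25 genes for kinases and phosphatases that control synthase and phosphorylase, 24 were tested, as Ppp1r1a had 0 counts in every library. None passed the edgeR threshold (lowest adjusted p 0.25), and the median log2 fold change was −0.11. At an unadjusted p under 0.05, 4 were lower and 0 higher, against 5.81% of all genes lower and 8.05% higher. The 4 were Prkaca and Prkacb, catalytic subunits of the cAMP-dependent kinase, Gsk3b, a kinase that inhibits glycogen synthase, and Calm3, one of the calmodulin genes that supply a subunit of phosphorylase kinase. Prkaca was at 89.7, 60.6 and 76.0 CPM in the controls, against 41.2, 52.9 and 50.6 with PP-MP (log2 fold change −0.65, SE 0.19). Gsk3b was at 38.9, 31.3 and 37.9 CPM in the controls, against 27.8, 25.7 and 25.6 with PP-MP (log2 fold change −0.45, SE 0.14). The groups of each of these 4 genes did not overlap, but they were named for their small p, so this is no separate support. Over the 24 tested genes, 5 were lower and 2 higher without overlap, against 9.79% and 12.2% of all genes. Ppp1ca, a catalytic subunit of protein phosphatase 1, followed by p with a log2 fold change of −0.45 (SE 0.19). Phkg2, the liver catalytic subunit of phosphorylase kinase, was at 19.0 ± 1.62 CPM in the controls, against 23.4 ± 1.67 CPM in PP-MP, higher in every PP-MP library (log2 fold change 0.30, SE 0.13; edgeR adjusted p = 0.38).

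Genes that bring hormone signals and glucose to the pathway had fold changes on both sides of 0. Of 18, all tested, 0 passed the edgeR threshold (lowest adjusted p 0.21), and the median log2 fold change was 0.24. At an unadjusted p under 0.05, 3 were higher and 3 lower, against 8.05% of all genes higher and 5.81% lower. On the higher side, Mlxipl, which encodes the glucose-responsive factor ChREBP, was at 60.9, 57.5 and 50.8 CPM in the controls, against 87.1, 78.6 and 97.0 with PP-MP (log2 fold change 0.63, SE 0.14). Gckr, which encodes a regulatory protein of hepatocyte glucose metabolism, was at 52.9, 47.6 and 28.1 CPM in the controls, against 64.6, 109 and 109 with PP-MP (log2 fold change 1.14, SE 0.31). Neither gene showed overlap between the diets, but both were named for their small p, so this is no separate support. Over the 18 genes, 4 were higher and 3 lower without overlap, against 12.2% and 9.79% of all genes.

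On the lower side, Adra1b, an adrenergic receptor that signals for glycogen breakdown, was at 13.0, 9.06 and 8.66 CPM in the controls, against 4.12, 6.34 and 6.79 with PP-MP (log2 fold change −0.83, SE 0.26). Slc2a2, the glucose transporter of hepatocytes, was at 194, 176 and 269 CPM in the controls, against 92.9, 165 and 129 with PP-MP (log2 fold change −0.73, SE 0.26). Both were lower in every PP-MP library, as were 9.79% of all genes, but they too were named for their small p. The edgeR adjusted p of Mlxipl, Gckr, Adra1b and Slc2a2 ran from 0.21 to 0.32. The other two, named after their values were seen, were the glucagon receptor gene Gcgr (log2 fold change 0.43) and Akt2, a kinase of insulin signalling (−0.35).

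Genes of like pattern were sought by the root mean square distance between log2 CPM profiles over the 6 libraries, each centred on its own mean. For Pygl, which deviates by 0.341 about its mean, the nearest of 6360 genes were Prkaca (distance 0.0734), Ubqln4 (0.0761) and Dlat (0.0812). For Ppp1r3c, which deviates by 0.576, they were Hsd3b3 (0.133), Gclc (0.193) and Hnrnpc (0.225). For Gys2, which deviates by 0.517, they were Cyp2c37 (0.163), Cyp2d22 (0.225) and Mup19 (0.227), of which Cyp2c37 was at 379, 408 and 554 CPM in the controls, against 269, 383 and 586 CPM in PP-MP. For Ppp1r3g, which deviates by 2.02, the nearest of 11032 genes was Mef2a at 0.977, a poor match. Hsd3b3, Cyp2c37 and Mup19 have close relatives in the genome, and their counts are uncertain. Among the 9 members themselves the nearest pairs were Pygl with Ugp2 (0.382) and Pygl with Ppp1r3c (0.384).

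**Figure D5:**
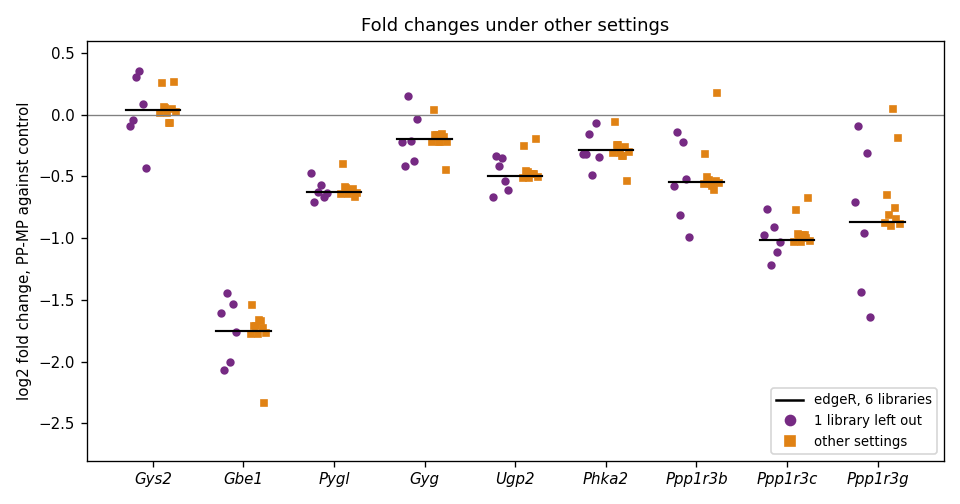
Log2 fold change of each member under the edgeR fit of 6 libraries (bar), with 1 library left out (circles) and under the other settings (squares). Gbe1, Pygl, Ppp1r3c, Ugp2 and Phka2 stay below 0 in every setting, and Gys2, Gyg, Ppp1r3b and Ppp1r3g cross 0 in at least 1.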

How the data were processed

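The authors deposited raw read counts per gene symbol, and the 6 per-sample files of counts equal the columns of the joint table. Per the submitters' processing notes, bcl2fastq was used and the genome build was GRCm39. The sources used here name no aligner, counting tool, strand setting or annotation. Per the labels' protocols, RNA was poly(A)-selected for directional libraries. Groups follow the titles.

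Counts that passed filterByExpr by group were scaled with TMM factors and tested without pairing by edgeR 4.0.16 in R 4.3.3 (robust quasi-likelihood F test, two-sided). P-values were adjusted over 18284 genes by the Benjamini-Hochberg method, with 0.05 as the threshold. Alternatives were DESeq2 1.42.0, limma-voom (limma 3.58.1), other scalings and filters, the data without mitochondrial, haemoglobin and 18S genes, left-out libraries and a replicate block. DESeq2 was run on the genes that passed this filter, a choice made after a run on every gene with a count had been seen; both are given. The edgeR procedure was tested on simulated data, and the dispersions of the simulation were reset after earlier versions had been seen. With trended dispersions it recovered 83.3% of the genes changed 4-fold, 14.9% of those changed 2-fold and 0% of those changed 1.5-fold. That run made 5 false calls. With gene-wise dispersions it also recovered most of the genes changed 4-fold, the largest change. With dispersions scattered around the trend it recovered none, so few edgeR calls here do not show that genes did not change. The members and gene lists were chosen with earlier results of these data known. A gene of each of 2 other lists is not reported here, and their counts and medians leave it out. Named from each other list are the genes of smallest p, at most 5, besides isoforms and kinase or phosphatase subunits; Gcgr, Akt2, Insr, Pck1 and G6pc were named outside this rule, after their values were seen.

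Exonic length is the union of exons in GENCODE M21 (GRCm38), not the build of the counts. There Ugp2 shares 2.5% and Phka2 1.9% of exonic positions with a gene on the other strand, and the other 7 members share none. Log2 CPM used a prior count of 2. Libraries of a group differed by far more than counting noise (lowest chi-square per degree of freedom 154), so none was counted as a duplicate. Tables and figures were made with Python 3.11.15, pandas 2.3.3, NumPy 2.4.6 and matplotlib 3.10.9.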

Additional observations from a re-analysis of the deposited data

How the results depend on the processing

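The count of members with an unadjusted p under 0.05 (2 to 4) stayed within 1.5 times under all settings run. The count of members lower in every PP-MP library was redone only with libraries left out, on the values of the main fit. It was 3 or 4, and could not fall below 3 because leaving out a library cannot create overlap. With DESeq2, 3 members passed the adjusted threshold, against 0 with edgeR and limma-voom, and 777 genes passed in all, against 2 with edgeR. That DESeq2 input, the filtered genes, was chosen after the run on every gene with a count had been seen. The earlier run gave 2 members and 699 genes. Library totals and limma-voom gave 1 gene in all. Leaving out 1 library gave 0 to 92 genes, with 92 without control 2, and 0 of the members each time. The median log2 fold change of the members was −0.32 with library totals, where that of all genes rose to 0.26. The gap was −0.58 in both scalings, but a change of scaling shifts all genes nearly alike, so this does not test the gap. With 1 library left out the median of the members was −0.64 to −0.33, the weakest without control 2. The mean log2 ratio of Gys2 to Pygl was 0.16 to 0.90 higher in PP-MP with 1 library left out. The sign of Gys2 turned with limma-voom (−0.0687), with the replicate block (−0.0672), and without control 1 (−0.0938), control 2 (−0.0459) or PP-MP 3 (−0.434), in a range of −0.434 to 0.354 over the left-out libraries. Gyg turned with library totals (0.0349) and without control 3 (0.148, in a range of −0.419 to 0.148), Ppp1r3g with limma-voom (0.0483), and Ppp1r3b without control 2 and PP-MP 1 (0.178). The cause was not tested. Ppp1r3g was not in the fit filtered at a mean CPM of 1. With the replicate block, which takes replicate numbers as pairs, 0 genes passed and 4 members had an unadjusted p under 0.05. For a check of pairing, the log2 CPM of each gene was centred on the mean of its group. On these deviations, not on the levels themselves, same-numbered libraries correlated at −0.0662, −0.0872 and 0.0470. Of 6 libraries, 2 correlated best with their own number. Counts near 1 limit Ppp1r3g, and 3 libraries per group limit the rest.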

Other observations

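Phkb, the regulatory beta subunit of phosphorylase kinase, differed by a wide margin among control libraries. Its CPM values were 0.317, 0.547 and 7.83 in the controls, against 4.30, 3.66 and 7.14 in PP-MP, so that control 1 and control 2 stood far below the other 4 libraries. The log2 fold change of 0.79 (SE 1.12, interval −1.89 to 3.46) missed the edgeR threshold (adjusted p = 0.77). Of the other subunits, Phkg1 was scarce, with 10, 0 and 9 reads in the controls, against 22, 6 and 15 in PP-MP, and Phka1 was at 3.50 to 3.87 CPM in the controls, against 3.94 to 5.05 CPM in PP-MP.

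Insr, the insulin receptor, was also uneven among the controls, at 5.76, 22.9 and 5.49 CPM in the controls, against 19.8, 9.76 and 13.4 CPM in PP-MP, with control 2 the highest of all libraries. Pck1, the enzyme that opens gluconeogenesis, was at 2305, 2696 and 1260 CPM in the controls, against 3065, 2714 and 3782 with PP-MP (log2 fold change 0.61, SE 0.31, edgeR adjusted p = 0.43). It was higher in every PP-MP library, as were 12.2% of all genes, with PP-MP 2 only just above control 2. G6pc, which releases free glucose from the liver, was at 204, 238 and 96.2 CPM in the controls, against 171, 137 and 194 CPM in PP-MP, with overlap between the groups. These genes were singled out after their values were seen.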
